A study of Mus musculus with 2 samples.

Results

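The 54 genes described here make, load and run the DNA replication machinery or mark entry into S phase. They were taken by symbol from a fixed list, and all 54 were listed with a value above 0 in both libraries, among 22350 gene symbols listed in either. The data are messenger RNA sequences of colon epithelium from C57BL/6 mice, with 1 library from wild type mice and 1 from Pkm2-/- mice, which lack the M2 isoform of pyruvate kinase, a glycolytic enzyme. Both groups had taken 2.5% dextran sulfate sodium (DSS) for 3 days, which damages the lining of the colon, so that neither library shows the colon without injury. The labels do not tell how many animals entered a library, how old they were or how the Pkm2 allele was built. Values are FPKM, meaning fragments per kilobase of transcript for a library of fixed mapped size, and can be compared between genes because they are per length.

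Replication begins in G1, when the origin recognition complex, Cdc6 and Cdt1 load the ring of Mcm2 to Mcm7 proteins onto DNA, a step called licensing. At the start of S phase Cdc45 and the GINS complex join this ring to form the active helicase, and DNA polymerases then copy the strands with the sliding clamp PCNA. Transcription of most of these genes is switched on at the G1/S boundary by E2F factors after cyclin-dependent kinases inactivate the retinoblastoma protein. In the colon this activity belongs to the dividing cells of the lower crypt, and cells that move up toward the surface leave the cell cycle.

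Promoter sequences, from 250 bases before to 50 after the RefSeq start on GRCm38, were found by symbol for 43 of the 54 genes. They were searched on both strands for the E2F spellings TTTCCCGC, TTTCGCGC, TTTGCCGC and TTTGGCGC. At least 1 match was present for 17 of the 43 genes, 39.5%. The share was 4.61% of the 8996 genes that had a promoter sequence and whose mean reached 1 FPKM, and 2.6% of all 27025 symbols with a promoter sequence. The licensing group held 7 of 10 with a match, the polymerase group 4 of 7 and the chromatin assembly and methylation group 2 of 4, while none of the 4 nucleotide supply genes held these letters in this window. The stretches below are shown because they carry this shared feature in the groups compared. They are 5 licensing genes, the polymerase gene Pola1 and the chromatin gene Uhrf1, each with a match before the RefSeq start used. For Orc1, Cdc6, Mcm7 and Uhrf1 the match shown lies inside the annotated span of the gene, so it is not upstream of all its transcripts. Dnmt1, in the chromatin group, also had a match before the start, at -219, and is not shown. Each stretch is read 5′ to 3′ on the strand of the gene, and capitals mark the matches, which may lie on either strand and may overlap.
Orc1 (chr4:108579401-108579453, plus strand): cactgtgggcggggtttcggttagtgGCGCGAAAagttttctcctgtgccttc
Cdc6 (chr11:98907987-98908046, plus strand): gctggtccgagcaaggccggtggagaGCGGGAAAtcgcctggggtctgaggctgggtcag
Mcm5 (chr8:75109330-75109393, plus strand): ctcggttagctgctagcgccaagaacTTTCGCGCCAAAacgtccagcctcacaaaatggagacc
Mcm6 (chr1:128359719-128359841, minus strand): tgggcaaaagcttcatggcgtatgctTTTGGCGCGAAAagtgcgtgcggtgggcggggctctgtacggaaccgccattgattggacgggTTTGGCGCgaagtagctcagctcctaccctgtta
Mcm7 (chr5:138172015-138172074, minus strand): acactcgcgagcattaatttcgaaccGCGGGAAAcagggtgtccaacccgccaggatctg
Pola1 (chrX:93632260-93632319, minus strand): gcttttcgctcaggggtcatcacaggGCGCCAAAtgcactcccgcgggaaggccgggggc
Uhrf1 (chr17:56304102-56304161, plus strand): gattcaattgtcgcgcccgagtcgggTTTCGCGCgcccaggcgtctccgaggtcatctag

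The spacing of the lowest values gave about 18800000 fragments for wild type and 21500000 for the Pkm2-/- library, so that a gene with a 1 kb transcript at 10 FPKM rested on about 188 and 215 fragments. Pkm, the targeted gene, stood at 281 FPKM in wild type and 86.2 FPKM in the Pkm2-/- library, a value that covers all its isoforms. The epithelial marker list was present in both libraries, with Epcam at 584 FPKM in wild type and 712 FPKM in the Pkm2-/- library. With 1 library per genotype there was no replicate check, no test and no p-value, and each difference describes these 2 libraries. The 95% counting intervals beside the folds leave out the spread between animals or preparations. They take the longest annotated transcript of each gene, and a shorter one would widen them.

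Replication genes were mostly slightly higher in the Pkm2-/- library. Of the 54 genes, 51 had a higher FPKM in the knockout than in the wild type library, against 58.8% of the 12429 genes whose mean reached 1 FPKM. The plain fold of knockout over wild type ran from 0.947 for Chaf1b to 1.75 for E2f2 and Fen1, with a median of 1.22. On the scale log2((knockout FPKM + 1)/(wild type FPKM + 1)), on which genes are counted below, the median was 0.26, beside 0.06 over all 12429 genes. At least 25% higher on this scale were 22 of the 54 genes (40.7%), against 15.7% of all genes, and none was lower by that factor, against 12.2%. At least 1.5-fold higher on the same scale were 4 genes (7.41%), namely Fen1, E2f2, Cdc45 and Gins1, against 4.46% of all genes, and none was at least 2-fold higher, against 1.42%. All 54 genes had a mean of at least 1 FPKM. Among the 10204 genes within the same range of mean level, 2.22 to 91.3 FPKM, the median was 0.08 and 15.8% were at least 25% higher.

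How far the genes stood above 0 depended on what the libraries were scaled to, because epithelial markers also differed between the libraries. Of the 12 markers, 10 were higher in the Pkm2-/- library, against 58.8% of all genes, with a median log2 ratio of 0.21. At least 25% higher were 2 (16.7%), against 15.7% of all genes. Cldn3 (353 and 305 FPKM) and Krt18 (236 and 230 FPKM) were lower. The knockout values were therefore also scaled by the median wild type over knockout ratio of the 12 markers, 0.865. The replication genes then had a median of 0.07, and 36 of 54 lay above 0, against 31.6% of all genes. At least 25% higher were 7, against 6.24%. The median over all genes was then -0.12, so that the distance between the replication genes and all genes was 0.19, close to the 0.20 of the values as deposited. The 15 constitutive genes compared had a median of 0.17, with 11 higher in the Pkm2-/- library. T cell markers also differed between the preparations, with a summed level over 15 genes of 35.3 FPKM in wild type and 127 FPKM in the Pkm2-/- library, and what part T cells or other cell types had in the replication values was not tested.

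**Figure D1:**
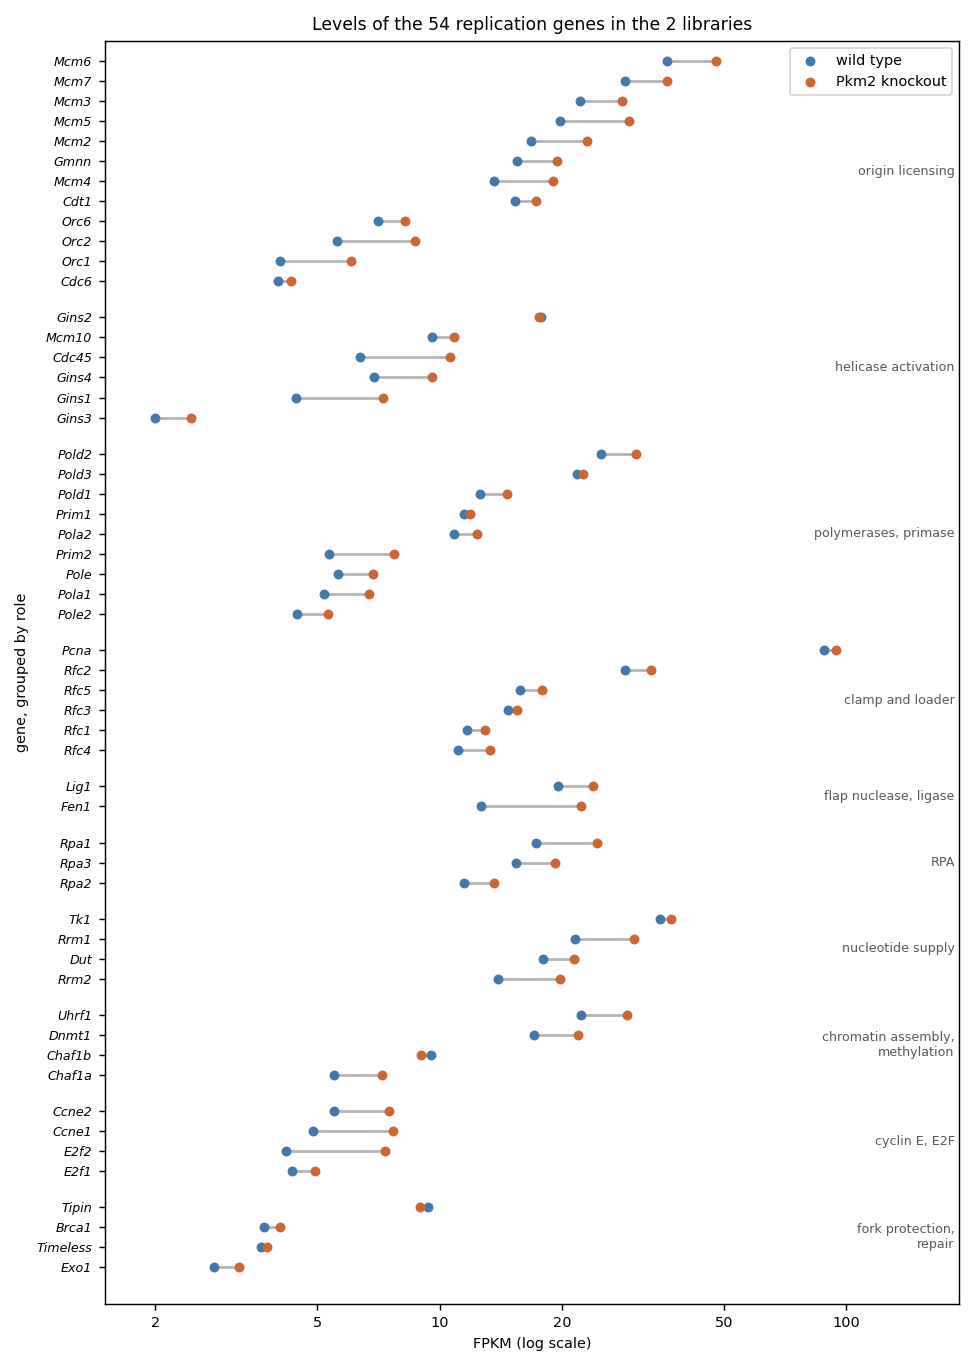
Each row is 1 replication gene, grouped by role and ordered by mean level, and the points give its FPKM on a log axis in the wild type (blue) and Pkm2 knockout (orange) library, with no error bars because there is 1 library per genotype. The orange point lies to the right of the blue one for 51 of 54 genes, and Gins2, Chaf1b and Tipin are the exceptions.

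Licensing genes were higher in the Pkm2-/- library throughout, with a median log2 ratio of 0.36. At least 25% higher were 8 of the 12 (66.7%), against 15.7% of all genes. The 6 ring subunits were more even than the genes that load them. Mcm6 was the most abundant of them, at 36.3 FPKM in wild type and 47.8 FPKM in the Pkm2-/- library, followed by Mcm7 at 28.5 and 36.2 FPKM. Exons of Mcm7 overlap those of Cops6 on the opposite strand, which was at 32.6 and 36.1 FPKM. Mcm5 stood at 19.8 and 29.3 FPKM, Mcm3 at 22.2 and 28.1 FPKM, Mcm2 at 16.8 and 23.0 FPKM, and Mcm4 at 13.6 and 19.0 FPKM. All 6 were higher in the Pkm2-/- library, between 1.27-fold for Mcm3 and 1.48-fold for Mcm5 (95% counting interval 1.38 to 1.59). The knockout value of Mcm5 passed that of Mcm3, and the order of the other subunits was the same in both libraries. The most abundant subunit exceeded the least abundant by 2.66-fold in wild type and 2.51-fold in the Pkm2-/- library. Mcm5 lies at chr8:75109569-75128439 and Mcm6 at chr1:128331590-128359664.

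The genes that load the ring differed more among themselves. Orc2, a core subunit of the origin recognition complex, stood at 5.58 FPKM in wild type and 8.71 FPKM in the Pkm2-/- library, 1.56-fold higher (95% counting interval 1.37 to 1.78). Orc1, the cell-cycle-regulated ATPase subunit, stood at 4.06 and 6.06 FPKM, whereas Orc6 was closer, at 7.06 and 8.22 FPKM. Exons of Orc6 overlap those of Vps35 on the opposite strand, which was far more abundant at 41.0 and 47.2 FPKM. Those of Orc2 overlap exons of Nif3l1 on the opposite strand, at 7.54 and 10.4 FPKM. The loading factor Cdc6 was near equal, at 4.01 and 4.31 FPKM, with a counting interval of the fold from 0.933 to 1.24. Its partner Cdt1 stood at 15.3 and 17.3 FPKM, and Gmnn, which encodes geminin, the protein that holds Cdt1 back once S phase has begun, at 15.5 and 19.4 FPKM. The level of Cdt1 relative to Gmnn was 0.991 in wild type and 0.892 in the Pkm2-/- library.

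Genes that turn the loaded ring into a running helicase showed the widest spread. Cdc45, a helicase cofactor, stood at 6.36 FPKM in wild type and 10.6 FPKM in the Pkm2-/- library, 1.67-fold higher (95% counting interval 1.43 to 1.95). Gins1 stood at 4.43 and 7.28 FPKM and Gins4 at 6.90 and 9.61 FPKM. Their partner Gins2, the most abundant of the 4 GINS subunits, was at 17.8 FPKM in wild type and 17.5 FPKM in the Pkm2-/- library, and its interval of 0.914 to 1.06 did not overlap those of Gins1 (1.27 to 2.14) and Gins4 (1.15 to 1.69). Gins3 was the least abundant of all 54 genes, at 2.0 and 2.45 FPKM. Mcm10, which helps to start the helicase, was at 9.56 and 10.9 FPKM. The transcripts of the 4 GINS subunits, whose proteins work in a single complex, thus differed by unequal factors. Exons of Gins2 overlap those of Gse1, and exons of Cdc45 overlap those of Ufd1, on the opposite strand in both cases. Whether the counting used strand is not given in the sources used here, so the reads of such pairs may not be separable.

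Polymerase and primase genes were all higher in the Pkm2-/- library, yet by little. At least 25% higher was 1 of 9 (11.1%), Prim2, which is below the 15.7% of all genes. Their median log2 ratio was 0.21. Prim2, the large primase subunit, stood at 5.35 FPKM in wild type and 7.74 FPKM in the Pkm2-/- library, 1.45-fold higher (95% counting interval 1.23 to 1.70). Prim1, the catalytic primase subunit, was at 11.5 and 11.9 FPKM, with an interval of 0.935 to 1.15 that did not overlap that of Prim2. Of the polymerase alpha subunits, which extend the primers, Pola1 was at 5.19 and 6.71 FPKM and Pola2 at 10.8 and 12.3 FPKM. For polymerase delta, which copies the lagging strand, the catalytic subunit Pold1 was at 12.5 and 14.7 FPKM, Pold2 at 24.9 and 30.4 FPKM and Pold3 at 21.8 and 22.5 FPKM. For polymerase epsilon, which copies the leading strand, the catalytic subunit Pole was at 5.62 and 6.85 FPKM and Pole2 at 4.45 and 5.30 FPKM. These 3 delta subunits were more abundant than these 2 epsilon subunits in both libraries.

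The sliding clamp and its loader differed least among the larger groups. Pcna (chr2:132249162-132253314) was by far the most abundant replication gene, at 88.5 FPKM in wild type and 94.2 FPKM in the Pkm2-/- library, 1.06-fold higher (95% counting interval 1.01 to 1.12). A processed pseudogene copy, Pcna-ps2, was listed at 1.26 and 1.14 FPKM. How reads that fit both copies were assigned was not examined. The 5 subunits of the clamp loader were between 1.05-fold for Rfc3 (14.7 and 15.5 FPKM) and 1.20-fold for Rfc4 (11.1 and 13.3 FPKM). The large subunit Rfc1 stood at 11.7 and 12.9 FPKM, Rfc2 at 28.5 and 33.1 FPKM and Rfc5 at 15.8 and 17.9 FPKM. Exons of Rfc4 overlap those of Eif4a2 on the opposite strand, which was far more abundant at 247 and 234 FPKM. Rfc5 shares exon positions with Wsb2 on the opposite strand, at 23.7 and 25.2 FPKM. None of the 6 clamp and loader genes was at least 25% higher, against 15.7% of all genes, and their median log2 ratio was 0.15. Relative to Mcm6, Pcna was at 2.44 in wild type and 1.97 in the Pkm2-/- library.

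Of the genes that join Okazaki fragments, the short pieces of the lagging strand, Fen1 (chr19:10199132-10204169) had the largest log2 ratio of all 54 genes, 0.76. Fen1 encodes the nuclease that trims the flaps and stood at 12.7 FPKM in wild type and 22.2 FPKM in the Pkm2-/- library, 1.75-fold higher (95% counting interval 1.58 to 1.94). Its exons overlap those of Tmem258 on the opposite strand, which stood at 23.5 and 29.1 FPKM. Lig1, the ligase that seals the nicks, was at 19.5 and 23.8 FPKM. The single-strand binding protein RPA protects unwound DNA, and its large subunit Rpa1 stood at 17.2 FPKM in wild type and 24.4 FPKM in the Pkm2-/- library, 1.42-fold higher (95% counting interval 1.33 to 1.51). The middle subunit Rpa2 was at 11.5 and 13.6 FPKM and the small subunit Rpa3 at 15.4 and 19.2 FPKM, and all 3 were higher in the Pkm2-/- library.

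Of the 4 nucleotide supply genes, 2 were at least 25% higher, against 15.7% of all genes, and 2 were closer to equal. The median log2 ratio was 0.35. Ribonucleotide reductase makes deoxyribonucleotides, and its large subunit Rrm1 (chr7:102441695-102469771) stood at 21.5 FPKM in wild type and 30.1 FPKM in the Pkm2-/- library, 1.40-fold higher (95% counting interval 1.33 to 1.48). Its S-phase small subunit Rrm2 (chr12:24708241-24714146) was at 13.9 and 19.8 FPKM, 1.42-fold higher (95% counting interval 1.28 to 1.58). The level of Rrm2 relative to Rrm1 was 0.648 in wild type and 0.657 in the Pkm2-/- library, so that the balance of the 2 subunits was nearly the same. Dut, which clears dUTP so that uracil is kept out of DNA, was nearer to equal at 18.0 and 21.4 FPKM. The thymidine salvage kinase Tk1 was at 34.9 and 37.1 FPKM, with a counting interval of the fold from 0.995 to 1.13. Exons of Tk1 overlap those of Afmid on the opposite strand, which was at 7.01 and 4.64 FPKM.

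Genes that rebuild chromatin behind the fork had 3 of 4 members at least 25% higher, against 15.7% of all genes. Their median log2 ratio was 0.34. Uhrf1, which recognises hemimethylated DNA, stood at 22.2 FPKM in wild type and 29.0 FPKM in the Pkm2-/- library. Dnmt1, the maintenance methyltransferase that it recruits, stood at 17.0 and 21.9 FPKM. Their folds were close, at 1.30-fold (95% counting interval 1.22 to 1.39) for Uhrf1 and 1.28-fold (1.21 to 1.36) for Dnmt1. The chromatin assembly factor CAF-1 places new histones, and its subunits went apart. Chaf1a was at 5.51 FPKM in wild type and 7.23 FPKM in the Pkm2-/- library, with a fold interval of 1.20 to 1.44. Chaf1b (chr16:93883901-93906115) was at 9.53 and 9.02 FPKM, the lowest ratio of all 54 genes, with a fold interval of 0.838 to 1.07.

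The regulators of S phase entry were scarce, below 8 FPKM in both libraries, and held some of the largest folds. E2f2 (chr4:136172394-136196057), an activating E2F factor, stood at 4.19 FPKM in wild type and 7.35 FPKM in the Pkm2-/- library, 1.75-fold higher (95% counting interval 1.55 to 1.99). E2f1, of the same class, was at 4.32 and 4.93 FPKM, with an interval of 0.955 to 1.36 that did not overlap that of E2f2. The 2 E2F genes were thus level in the wild type library and 1.49-fold apart in the Pkm2-/- library. Cyclin E, which with Cdk2 drives the start of S phase, is encoded by Ccne1, at 4.89 and 7.67 FPKM, and Ccne2, at 5.49 and 7.53 FPKM. Both cyclin E genes were higher in the Pkm2-/- library, 1.57-fold and 1.37-fold. Ccne2 shares exon positions with Ints8 on the opposite strand, which was more abundant at 12.3 and 14.0 FPKM.

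Genes that steady or repair the fork differed least. Timeless and Tipin form the fork protection complex and stood at 3.63 and 3.76 FPKM for Timeless and at 9.37 and 8.96 FPKM for Tipin. The nuclease gene Exo1 was at 2.79 and 3.20 FPKM and the repair gene Brca1 at 3.69 and 4.05 FPKM. None of the 4 was at least 25% higher or lower by that factor, against 15.7% and 12.2% of all genes. Their median log2 ratio was 0.07, near the 0.06 of all genes.

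**Figure D2:**
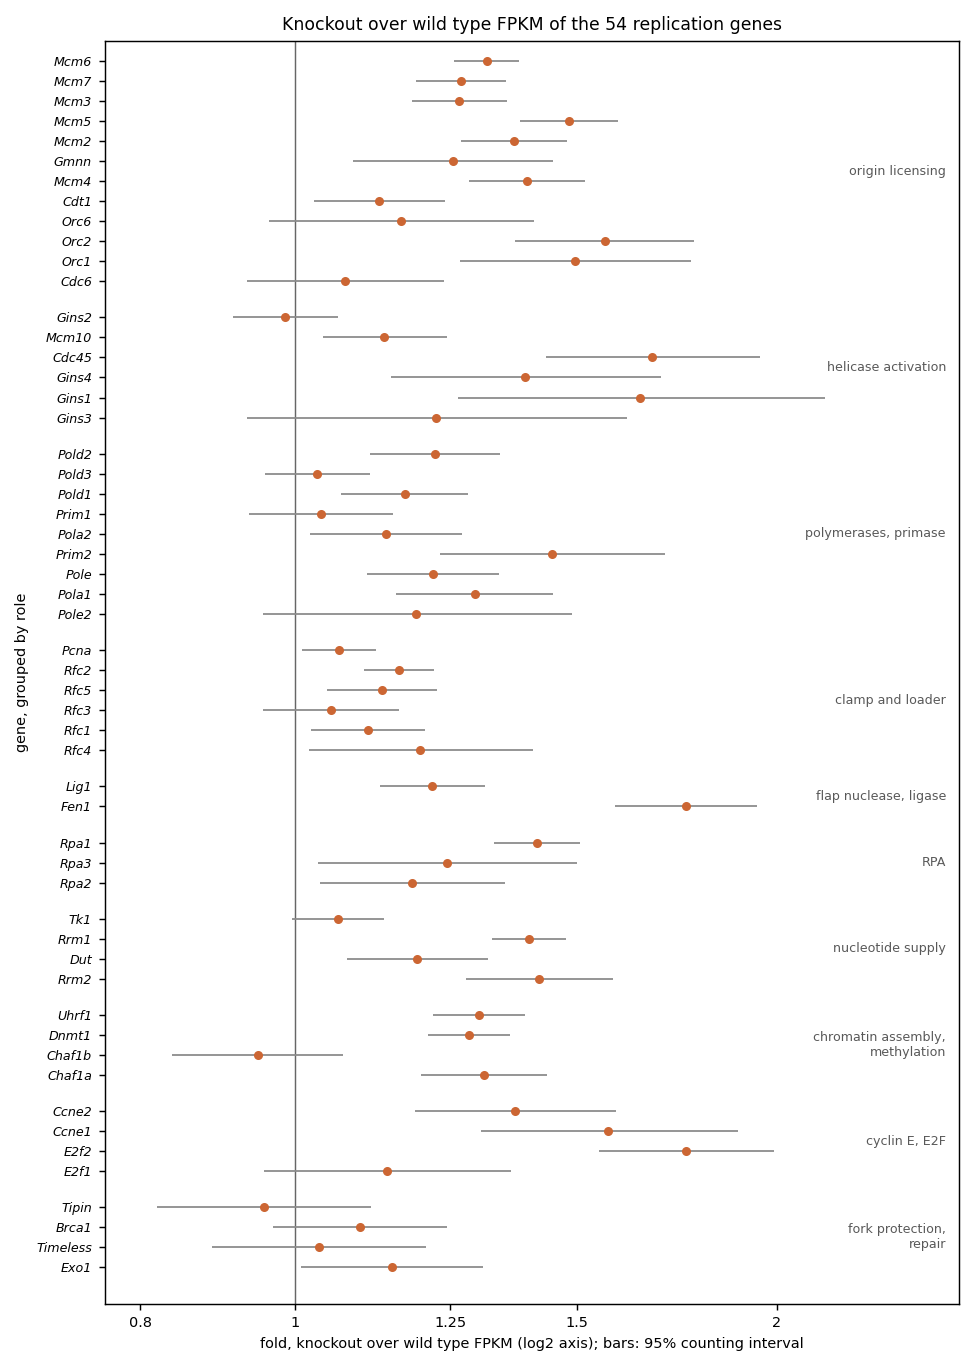
Points give the plain fold of knockout over wild type FPKM of each replication gene on a log2 axis, grouped by role, and bars are 95% counting intervals, which do not hold the spread between animals. The interval lies above 1 for 40 genes and spans 1 for 14, and the 5 clamp loader genes sit closer to 1 than the 6 Mcm2 to Mcm7 ring genes.

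Set side by side, the role groups ran from the cyclin E and E2F genes (median log2 ratio 0.48 over 4 genes), licensing (0.36 over 12), nucleotide supply (0.35 over 4) and chromatin assembly and methylation (0.34 over 4) to helicase activation (0.31 over 6) and RPA (0.30 over 3). Lower were polymerases and primase (0.21 over 9), clamp and loader (0.15 over 6) and fork protection and repair (0.07 over 4). The flap nuclease and ligase had 0.27 for Lig1 and 0.76 for Fen1. The order is a description, since groups of 3 to 12 genes overlapped widely and were not tested against each other. Scaled by the median ratio of the epithelial markers, clamp and loader genes had a median of -0.04 and fork protection and repair genes -0.09. Licensing genes then had 0.16 and chromatin assembly and methylation genes 0.15.

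The replication genes rested on 90 to 4472 fragments, and counting error was not small next to all of these spreads. For Rfc4 the counting interval ran from 1.02 to 1.41, wider than the range of folds over the 5 clamp loader genes, 1.05 to 1.20. The counting interval of the fold lay above 1 for 40 genes, against 38.4% of the 12396 genes with a known transcript length, and below 1 for none, against 23.3%. It spanned 1 for the other 14, which were Orc6, Cdc6, Gins2, Gins3, Prim1, Pold3, Pole2, Rfc3, Tk1, Chaf1b, E2f1, Brca1, Tipin and Timeless. The 27 genes at or above a mean of 12.4 FPKM had a median log2 ratio of 0.30 and the 27 below it 0.21, on a scale that shrinks the ratios of scarce genes. Of the 6 genes with a plain fold above 1.5, 5 were in the scarcer set. The 18 genes that share exon positions with another annotated gene had a median of 0.26, and so had the 36 that do not. Of the 4 genes at least 1.5-fold higher on the log2 scale, 2 share exon positions, namely Fen1 and Cdc45, and the part of their partners in these values was not tested. The members lay on 16 chromosomes, with at most 6 on any of them.

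Genes with and without a promoter match to the E2F spellings overlapped in their ratios, and the difference between them was not tested. The 17 genes with a match had a median log2 ratio of 0.32, ranging from 0.04 to 0.69, and the 26 with a promoter sequence and no match had 0.23, ranging from -0.07 to 0.76. Fen1, Cdc45, Ccne1 and Orc2 were among those with no match in the window. So were Chaf1b, Timeless and Prim1, which had low ratios.

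**Figure D3:**
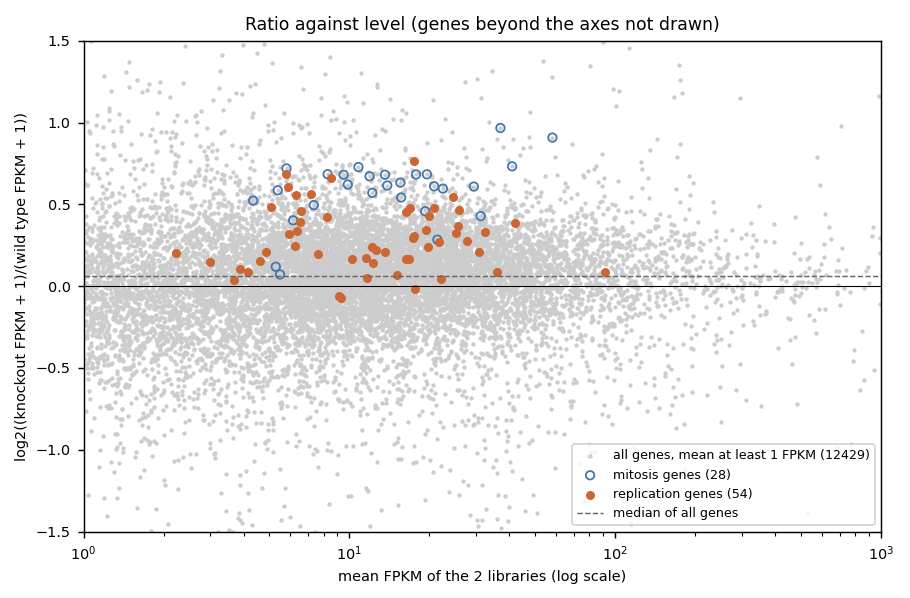
The horizontal axis is the mean FPKM of the 2 libraries on a log scale and the vertical axis the log2 ratio of knockout over wild type FPKM, each with 1 added, for all genes (grey), replication genes (orange) and mitosis genes (blue rings). Most orange points lie between 0 and 0.6 across the range of levels, above the dashed all-gene median of 0.06, and most blue rings lie above them.

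Other genes of the pathway were mostly higher in the Pkm2-/- library too. Of 81 further genes of replication, nucleotide supply, histone handling, G1/S control and the replication checkpoint, 67 were higher, against 58.8% of all genes. At least 25% higher were 24 (29.6%), against 15.7% of all genes, and 1 was lower by that factor, against 12.2%. Their median log2 ratio was 0.24. In origin licensing and firing, 11 of 14 were higher, led by Dbf4, the activator of the origin-firing kinase Cdc7, at 9.48 FPKM in wild type and 15.9 FPKM in the Pkm2-/- library. The origin recognition subunit Orc4 stood at 21.2 and 30.2 FPKM, Orc3 at 15.98 and 14.2 FPKM and the replisome factor Wdhd1 at 8.52 and 8.35 FPKM. In DNA synthesis, 9 of 12 were higher. They included Atad5, which unloads PCNA, at 2.70 and 4.30 FPKM and Dscc1, part of an alternative clamp loader, at 1.96 and 3.15 FPKM. The mitochondrial single-strand binding gene Ssbp1 (25.4 and 22.8 FPKM) and the small polymerase delta subunit Pold4 (9.31 and 8.33 FPKM) were lower.

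Among 10 further nucleotide genes, 7 were higher, beside 58.8% of all genes, and Samhd1 stood apart. Samhd1 encodes a deoxynucleotide triphosphohydrolase, which breaks down what ribonucleotide reductase supplies and is also known as an interferon-inducible antiviral gene. It stood at 58.8 FPKM in wild type and 137 FPKM in the Pkm2-/- library, 2.33-fold higher (95% counting interval 2.25 to 2.41). Its level relative to Rrm1 was 2.73 in wild type and 4.55 in the Pkm2-/- library. The mitochondrial kinase Tk2 (5.43 and 4.72 FPKM) and the serine hydroxymethyltransferase Shmt1 (33.4 and 30.2 FPKM) were lower.

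All 9 further chromatin genes were higher, from the histone chaperones Asf1a, at 7.24 and 7.29 FPKM, and Nasp, at 35.6 and 40.4 FPKM, to Asf1b, the chaperone paralog tied to proliferation, at 7.10 and 11.5 FPKM. The FACT subunit Ssrp1 was at 43.0 and 55.6 FPKM. Of 21 further G1/S control genes, 19 were higher, against 58.8% of all genes. Ccnd1, which encodes cyclin D1, was at 43.2 FPKM in wild type and 75.4 FPKM in the Pkm2-/- library, and the repressive factor E2f8 at 8.59 and 12.9 FPKM. The retinoblastoma gene Rb1 (16.2 and 14.5 FPKM) and E2f5 (14.7 and 14.4 FPKM) were lower. In checkpoint and repair, 12 of 15 were higher, including Rad18 (3.36 and 5.06 FPKM), a ubiquitin ligase that acts on PCNA. Brca2, a gene of recombination repair, was lower at 5.49 and 3.86 FPKM, 1.42-fold (95% counting interval 1.30 to 1.56), and so was Wee1, a kinase that restrains Cdk1, at 7.46 and 5.82 FPKM.

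Mitosis genes differed more than replication genes. Every one of the 28 was higher in the Pkm2-/- library, against 58.8% of all genes. At least 1.5-fold higher were 18 (64.3%), against 4.46% of all genes. The median log2 ratio was 0.61 against 0.26 for the replication genes. The cyclin A2 gene Ccna2 had the largest ratio, at 24.7 FPKM in wild type and 49.3 FPKM in the Pkm2-/- library, and the spindle checkpoint kinase Ttk the smallest, at 5.32 and 5.64 FPKM. Summed over each list, replication genes came to 766 FPKM in wild type and 937 FPKM in the Pkm2-/- library, 1.22-fold higher, and mitosis genes to 368 and 590 FPKM, 1.60-fold higher. The sum of the replication genes was thus 2.08 times that of the mitosis genes in wild type and 1.59 times in the Pkm2-/- library. The lists also differed in promoter letters. The E2F spellings were found for 1 of 24 mitosis genes with a promoter sequence and for 17 of 43 replication genes. TTTGAA, the letters of the cell cycle homology region of G2/M promoters, was found for 17 of 24 mitosis genes (70.8%) and 7 of 43 replication genes (16.3%), against 14.4% of genes whose mean reached 1 FPKM. CCAAT, the letters bound by NF-Y, was found for 18 of the 24 mitosis genes and 27 of the 43 replication genes, against 43.1%.

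**Figure D4:**
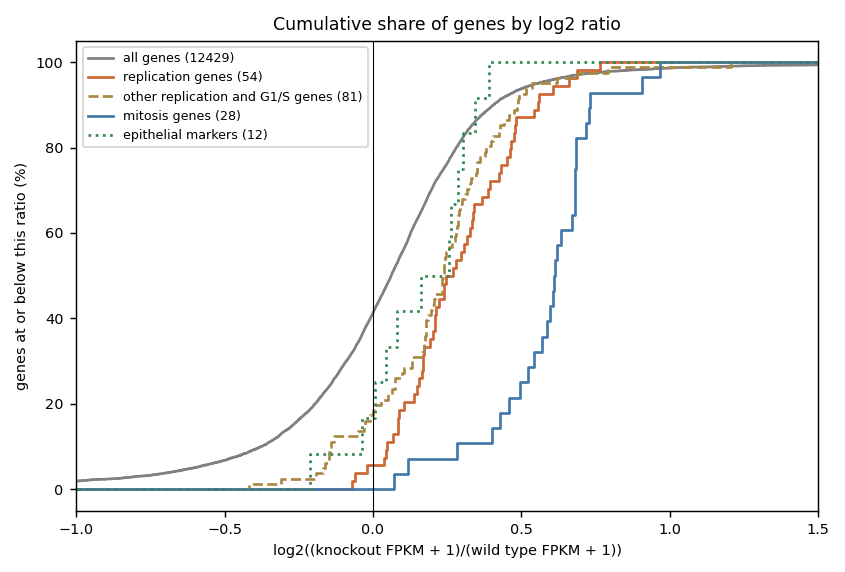
Curves give the cumulative percentage of genes at or below each log2 ratio of knockout over wild type (1 FPKM added) for all genes, the 54 replication genes, 81 other replication and G1/S genes, 28 mitosis genes and 12 epithelial markers. The replication curve crosses 50% at 0.26, to the right of all genes at 0.06 and near the epithelial markers at 0.21, and the mitosis curve crosses at 0.61.

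Markers of cell states and of other cell types moved between the libraries beside these genes. Of the crypt base and progenitor markers, all 11 whose mean reached 1 FPKM were higher in the Pkm2-/- library, with a median log2 ratio of 0.35. Among them Lgr5, a stem cell receptor, was at 3.04 and 3.53 FPKM and Myc at 13.0 and 21.3 FPKM. Of 14 differentiated colonocyte markers, 2 were higher and 11 were lower by the factor of 25% used above, with a summed level of 9166 FPKM in wild type and 5726 FPKM in the Pkm2-/- library. In bulk RNA, more cells of a type and more RNA per cell cannot be told apart.

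T cell markers were higher in the Pkm2-/- library for all 12 of the 15 whose mean reached 1 FPKM, and none of the 15 was at 0 in either library. Gzma, a cytotoxic granule protease, was the highest of them by mean at 3.34 and 25.03 FPKM, and the pan-leukocyte gene Ptprc was at 5.94 and 16.1 FPKM. The 9 B and plasma cell markers summed to 10.004 and 34.9 FPKM. The 12 myeloid markers summed to 220 and 175 FPKM, most of it Ctss at 181 and 125 FPKM. Of the 9 myeloid markers whose mean reached 1 FPKM, 5 were higher and 4 lower in the Pkm2-/- library, with a median log2 ratio of 0.30. Of 7 neutrophil markers 3 were listed and summed to 25.5 and 13.2 FPKM, nearly all Ly6g, while the other 4 were listed in neither library and taken as 0. The 8 fibroblast markers summed to 11.6 and 11.4 FPKM. Vim made up most of that sum, at 6.80 and 9.76 FPKM, and the other listed fibroblast markers were all lower in the Pkm2-/- library. The 6 endothelial markers summed to 1.61 and 0.940 FPKM, the 5 smooth muscle markers to 2.03 and 2.33 FPKM and the 5 erythrocyte markers to 24.5 and 1.91 FPKM.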

How the data were processed

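The deposited files give 1 value per gene and library without a header. They were taken as FPKM, as the authors computed them. The submitters' processing notes name the build mm8, the aligners TopHat2 (2.1.1) and Bowtie2 (2.2.9), and Cuffdiff (1.3.0, 2.2.1) besides Cufflinks (2.2.1). The files' loci overlapped the same gene on GRCm38 (GENCODE M21) for 99.96% of matched gene identifiers, so that coordinates are given on GRCm38. Rows sharing a symbol were summed and an unlisted gene was taken as 0.

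The log2 ratio used a pseudocount of 1 FPKM, and genes were counted when their mean reached 1 FPKM, as higher by 25% or more, 1.5-fold or 2-fold in FPKM + 1. Fragments were estimated from the modal lowest FPKM times kb in genes with 1 transcript over 1.5 kb and the longest annotated transcript. Fold intervals are Clopper-Pearson. The steps were tested on simulated data, with Python 3.11.15 and scipy 1.17.1. The simulated fragments were drawn with the same longest transcript, so that choice of length was not tested. Promoter sequences are from RefSeq on GRCm38. Transcripts of the mitochondrial genome and of 7 copies on chromosome 1 took 30.0% of the wild type and 26.1% of the knockout FPKM sum, a share that bears on every other FPKM. The named genes were all 54 members, the 2 highest and 2 lowest ratios of each further pathway list, the highest and lowest mitosis gene, and, of each marker list, the sums and the most abundant gene where it is given. Some genes that this rule names are not reported here. Epcam, Lgr5, Myc and Ptprc were chosen after their values were seen. Members and lists were chosen with earlier results of these data known.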

Additional observations from a re-analysis of the deposited data

How the results depend on the processing

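The median log2 ratio of the 54 replication genes was 0.26 as reported and stayed above 0 under every alternative tried. It was 0.28 with a pseudocount of 0.1, 0.20 with a pseudocount of 5 and 0.31 over the 47 genes whose mean reached 5 FPKM. It was 0.20 when upper quartiles were equalised and 0.18 with equal library medians. Equal sums without mitochondrial genes gave 0.30, and 0.26 when their chromosome 1 copies were left out as well. It was 0.069 when scaled by the median ratio of the epithelial markers, and 0.29 as a mean over members. The count at least 25% higher was 22 as reported, beside 15.7% of all genes. It was 13 with a pseudocount of 5 (all genes 8.11%), 14 of the 36 genes without exon overlap and 7 with the epithelial marker scaling (all genes 6.24%). The count at least 1.5-fold higher was 4 as reported, beside 4.46% of all genes. It was 1 with a pseudocount of 5 (all genes 1.77%) and 2 with equal library medians (3.36%). It was 7 with equal sums without mitochondrial genes (5.22%) and 4 when their chromosome 1 copies were left out as well. It was 2 of the 36 without exon overlap and 0 with the epithelial marker scaling (2.41%). Fork protection and repair genes changed sign, from 0.07 to -0.059 with the filter at 5 FPKM, which left Tipin alone. They also went to -0.091 with the epithelial marker scaling, under which clamp and loader genes went to -0.041. The scalings multiply every knockout value by the same constant. With 1 FPKM added, this shifts the log2 ratios of scarce genes less than those of abundant ones. Of all genes at least 1.5-fold apart, 45.7% were higher in the knockout library as reported. This was 34.3% with equal library medians and 21.9% with the epithelial marker scaling. The scaling to epithelial markers and the one that also left out the chromosome 1 copies were chosen after seeing the data. No paired analysis was possible because each genotype has 1 library. Depth limits the genes with the fewest fragments, such as Gins1 with 90 and Gins3 with 95 in the wild type library.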
